A study of Drosophila melanogaster with 24 samples.

Results

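The digestive lysozymes of Drosophila melanogaster are 7 genes that lie near each other, LysB, LysC, LysD, LysE, LysP, LysS and LysX. They were chosen by their FlyBase symbols and not by a rule on measured values, but with earlier results of these data known. Of the 12024 genes in the deposited RNA-Seq table, 3 were members of this family, LysE (FBgn0004428), LysP (FBgn0004429) and LysX (FBgn0004431), and all 3 passed the filter on low values. LysB, LysC, LysD and LysS were not analysed here. The values cover 6 conditions. F1-18 flies (cold-treated) were reared at 18 °C and F1-25 flies (control) at 25 °C for their whole life. The F2 flies were all reared at 25 °C, from F1 eggs that had been washed in dilute hypochlorite and put on food carrying faeces of F1 males. The eggs were laid at the temperature of the F1 flies, 18 or 25 °C. The paper states that the F2 flies thus met the cold or control temperature as eggs. Each F2 name states at what temperature the F1 donors of the microbiome (after M) and of the germline (after G) had lived. F2-M18-G18 has a cold history for both sources, F2-M25-G25 a control history for both, and F2-M18-G25 and F2-M25-G18 are the crossed groups. All flies were of a single isogenic white-eyed line, and each library was made from ribosome-depleted total RNA of 20 whole males that were 0 to 16 h old, so neither a gut nor a salivary gland was isolated. Of the 24 samples of the series, 22 had values, 4 in each condition except F1-25 and F2-M18-G25 with 3 each.

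Lysozymes cut the peptidoglycan of bacterial cell walls. The fly genes encode c-type lysozymes, the type of hen egg white, and in flies, which feed on microbe-rich rotting fruit, the family has expanded and is expressed in the digestive tract, where the enzymes are thought to digest bacteria taken in as food rather than to serve as an inducible defence. LysB, LysC, LysD and LysE are very similar genes of the midgut, LysP is known from the adult salivary gland, LysS from the gastric caeca of the larva, and LysX from the gut around metamorphosis.

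In the Release 6 assembly, on which the reads were aligned, the 7 genes lie within 33.5 kb of chromosome arm 3L. LysX (1194739 to 1195302, minus strand) stands at the left end. The 6 other genes all lie in a single intron (1206786 to 1229529) of mwh, a plus-strand gene that acts in planar cell polarity and restricts the number of wing hairs per cell. From left to right these are LysB (1207371 to 1207981, plus), LysC (1210485 to 1210726, plus, annotated as a pseudogene), LysD (1210717 to 1211196, minus), LysE (1212827 to 1213406, plus), LysP (1218082 to 1218696, minus) and LysS (1227747 to 1228238, plus). LysE, LysP and LysX have 1 exon each, of 580, 615 and 564 bases, which include their untranslated regions. LysC and LysD overlap by 10 bases on opposite strands. The reads were counted by strand and only where they mapped to a unique place, so LysE, as a close copy of LysB, LysC and LysD, may have lost reads that fit several copies, and its level is uncertain in that sense.

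**Figure D1:**
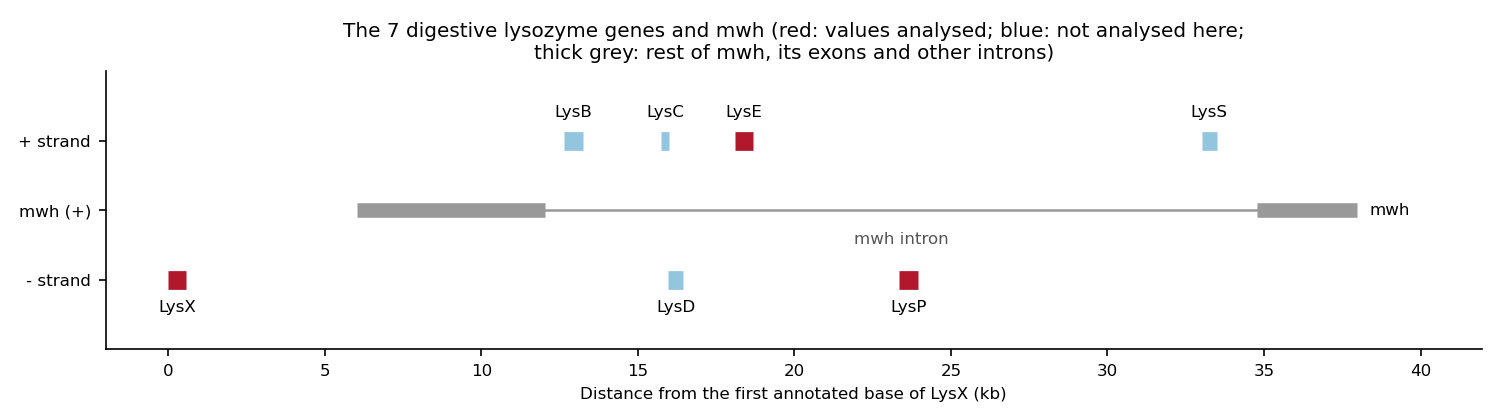
Map of the 7 digestive lysozyme genes and mwh along chromosome arm 3L, to scale, with the distance from the first annotated base of LysX in kb on the x axis and the strand on the y axis. Red genes have values here and blue genes were not analysed here. The thin grey line is the mwh intron that holds 6 of the 7 genes, and LysX lies outside mwh.

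A value is a normalised read count, which the paper reports as made with the TMM method. It is not the number of reads divided by library size alone. In replicate 1 of F1-25, of relative size 0.5548, 2 LysX reads stood at 4.86. In replicate 1 of F2-M25-G25, of relative size 2.502, about 33 LysP reads (33.1 as recovered) stood at 10.99. That number was not whole within 0.1, and this library had the lowest share of whole numbers (40.8%). The values were taken here as also moved around the average level of each gene within its condition. A low value thus depends on the other libraries of its condition too. The steps between low values gave back the number of reads behind each library, 2145765 to 9270087 in all. The step that 1 more read makes in a low value was approximated as 1 over the square root of the relative size, 0.632 to 1.34 units. The recovered numbers were whole (within 0.1) for 59 of the 66 values of the 3 lysozyme genes. Markers of the whole male body were present in each library, among them ninaE of the eye at 3165 to 5166 and the accessory gland peptide SP at 120 to 360.2, while the yolk protein genes of females were low, at no more than 9.47 for Yp1, 41.2 for Yp2 and 22.0 for Yp3. In F2-M25-G25, replicates 3 and 4 hold calculated values (the mean of replicates 1 and 2 plus a whole number) for 7150 genes, but for none of the 3 lysozyme genes, so all 4 libraries were used for them. Library names carry 2 doubts. First, the sample labels and the paper's own list of libraries name the crossed F2 groups in opposite ways, and the labels are followed here. The column headings of the values give the temperatures of these groups in the order opposite to the sample titles. Read as microbiome and then germline, the headings match the paper's list, also in which crossed group lacks replicate 3. The paper speaks of 4 replicates of F2-M18-G25, which has 3 libraries by the labels. It also reports that its F2 libraries separated first by germline source and then by microbiome source. By the labels more genes were called for the microbiome (1839) than for the germline (183) in the model with both sources. Which names are right was not tested. Under the other reading F2-M18-G25 and F2-M25-G18 change places, and every comparison of microbiome source below becomes one of germline source. Second, the recovered totals of 13 libraries lay within 0.1% of a total in that list, and 9 of these stood there under another condition. In F1 this concerns replicates 2, 3 and 4 of F1-18 and 2 and 4 of F1-25, of which replicates 2 and 3 of F1-18 and 2 of F1-25 match totals of the other F1 temperature. The F1 changes of the lysozymes and gene lists, and the other called lysozyme changes, are given with and without them. The 2 doubts are linked, since the matches follow the labels. Replicate 2 of each crossed group matches a total of the other crossed group, and replicate 1 of F2-M25-G18 one of its own group. Under the other reading of the crossed names these would change between the same and another condition.

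LysE was the most highly expressed of the 3 genes and LysX the lowest. Averaged over all libraries LysE stood at 57.4 normalised reads, rank 7233 of the 12024 genes, LysP at 25.6, rank 9383, and LysX at 9.90, rank 10907. LysE exceeded 10 in all 22 libraries, LysP in 21 and LysX in 8. For LysX these were all 4 libraries of F1-18 and 4 single libraries of other conditions, so it would have entered the tests without F1-18. Per kb of exon the means of F1-25 were 155 ± 18.8 for LysE (SD, n = 3), 41.5 ± 14.6 for LysP (n = 3) and 16.1 ± 12.7 for LysX (n = 3). The order was different in cold-treated flies, where LysP reached 85.4 ± 43.2 per kb (n = 4) beside 75.2 ± 22.4 for LysE (n = 4), 2 levels that overlapped in their spread, and 43.5 ± 18.5 for LysX (n = 4).

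**Figure D2:**
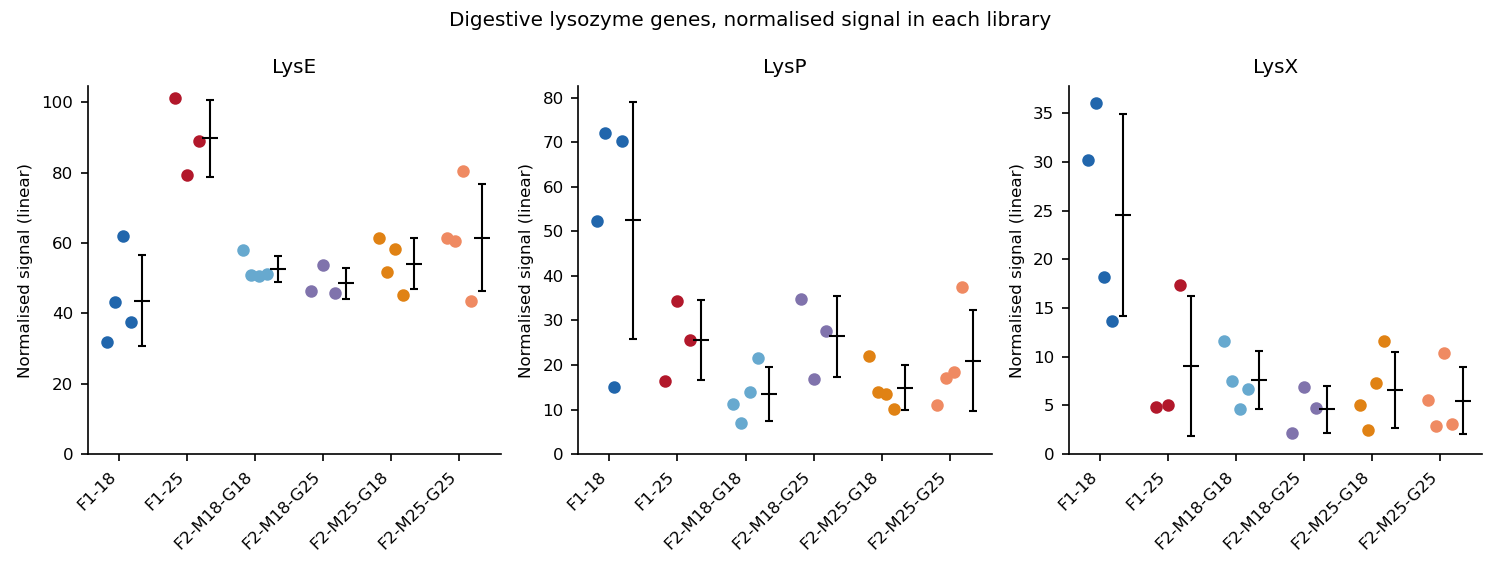
Normalised read count (y axis, linear, from 0) of LysE, LysP and LysX in each library, by condition on the x axis. Each point is a library and the black mark with bar is the mean ± SD of the condition. LysE is lowest in F1-18 and highest in F1-25, whereas LysP and LysX have their highest libraries in F1-18.

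The comparison of F1-18 with F1-25 asks how life at 18 °C changed gene expression. The lysozyme genes changed in both directions. LysE, known from the midgut, fell to 43.6 ± 13.0 normalised reads in cold-treated flies (SD, n = 4). Control flies stood at 89.8 ± 10.9 (n = 3), so the level was 2.06-fold lower in the cold. The tissue behind this fall was not tested. LysX rose to 24.5 ± 10.4 (n = 4) from 9.08 ± 7.18 (n = 3), which is 2.70-fold higher. LysP averaged 52.5 ± 26.6 (n = 4) against 25.5 ± 8.99 (n = 3) and did not pass the test. Over all genes 2660 of 11314 (23.5%) were called, 1240 higher (11%) and 1420 lower (12.6%), so a call was common in this comparison. The share was 7.58% without the 3 F1 libraries that match the other temperature and 15.7% without all libraries listed under another condition, and 1511 genes were called without replicate 2 of F1-25.

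For LysE the 4 cold-treated libraries stood at 31.9, 43.1, 61.9 and 37.6 and the 3 control libraries at 101, 79.4 and 88.9. Every cold-treated library was below every control library, and 26.3% of all genes showed such a separation in either direction. The log2 fold change was -1.04 (SE 0.19, 95% interval -1.43 to -0.65, limma on log2(value + 2), adjusted p = 4.72e-04). These values rest on 29 to 95 reads per cold-treated library and 57 to 138 per control library. Without the 3 F1 libraries that match the other temperature the change was -1.40 (adjusted p = 7.56e-04), and without all libraries listed under another condition, which left 1 library of each F1 group that is assumed to vary like the F2 libraries, it was -1.60 (adjusted p = 0.00973).

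LysE shares its strand with mwh, whose unspliced transcript runs through it, and the libraries were made without selection of poly(A) RNA. The mwh gene stood at 67.7 to 95.8 normalised reads in F1-18 and 80.3 to 97.9 in F1-25, and its log2 fold change was -0.12 (SE 0.16, 95% interval -0.46 to 0.21, limma adjusted p = 0.625). LysE was at 0.471 to 0.646 of the mwh value in the cold-treated libraries and at 0.989 to 1.03 of it in the control libraries. Per kb of exon, mwh had 17.3 ± 2.60 (SD, n = 4) in F1-18 and 18.8 ± 1.85 (n = 3) in F1-25, below the LysE levels of 75.2 and 155 per kb. How many LysE reads came from mwh was not tested.

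**Figure D3:**
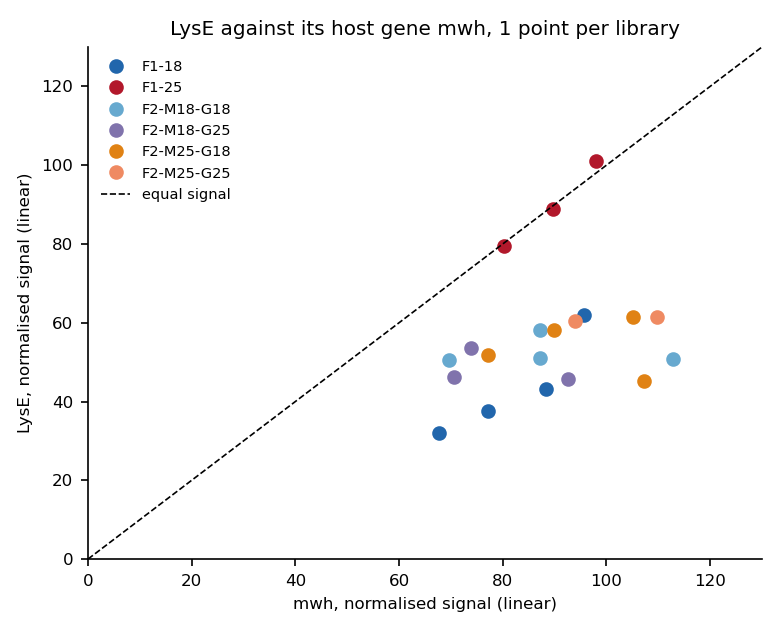
LysE (y axis) against its host gene mwh (x axis), both as normalised read count on linear axes, with 1 point per library coloured by condition. The dashed line marks equal values. The 3 libraries of F1-25 lie on that line, at ratios of 0.989 to 1.03, and the libraries of F1-18 lie below it at 0.471 to 0.646.

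For LysX, the lysozyme known from the gut at metamorphosis, the cold-treated libraries stood at 30.2, 36.1, 18.2 and 13.7 and the control libraries at 4.86, 5.01 and 17.4. The groups overlapped, since replicate 4 of F1-25 was above replicate 4 of F1-18. The log2 fold change was 1.35 (SE 0.45, 95% interval 0.43 to 2.28, limma adjusted p = 0.0314). This call was not stable. It was lost without replicate 1 of F1-18 (log2 fold change 1.23, adjusted p = 0.0770), replicate 2 of F1-18 (1.15, 0.0892), replicate 1 of F1-25 (1.10, 0.128) or replicate 2 of F1-25 (1.11, 0.155), all with a higher mean in the cold-treated flies. It was also lost with the F1 libraries fitted alone (adjusted p = 0.0703), without the 3 F1 libraries that match the other temperature (0.96, adjusted p = 0.360) and without all libraries listed under another condition (2.23, adjusted p = 0.0511). The reads behind LysX were few, 10 to 36 per cold-treated library and 2, 6 and 25 in the control libraries.

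For LysP, known from the adult salivary gland, the cold-treated libraries stood at 52.4, 72.2, 14.9 and 70.4. The control libraries stood at 16.5, 34.5 and 25.7. Replicate 3 of F1-18 was below all 3 control libraries and the other cold-treated libraries were above all of them. The log2 fold change of 0.83 (SE 0.44, 95% interval -0.08 to 1.75) did not pass the test (limma adjusted p = 0.183). Without replicate 3 of F1-18, which is also one of the libraries of doubtful name, it was 1.32 (adjusted p = 0.0167), without the 3 libraries that match the other temperature 1.47 (adjusted p = 0.0595), and without all libraries listed under another condition 1.56 (adjusted p = 0.160).

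Other genes of digestion and of defence against bacteria were set beside the lysozymes by fixed lists. In this F1 comparison 23.5% of all genes were called, 11% higher and 12.6% lower. Among the other c-type lysozyme genes of the fly, 1 of 5 tested rose in cold-treated flies and none fell, namely CG11159 with a log2 fold change of 1.52 (SE 0.47, limma adjusted p = 0.0232). Of the 5 invertebrate-type (destabilase) lysozyme genes 2 rose and none fell, CG6429 by 1.58 (adjusted p = 0.00957) and CG6435 by 1.02 (adjusted p = 0.00111). Of the 5 PGRP amidases, enzymes that also cut peptidoglycan but at another bond, 2 fell and none rose. PGRP-SC1a, an amidase of the gut, fell by 3.05 on the log2 scale (adjusted p = 0.0112) and its close copy PGRP-SC1b fell by 2.92 (adjusted p = 0.00324), a pair between which reads may be split.

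These calls depended on the libraries of doubtful name. Without the 3 F1 libraries that match the other temperature CG11159 (1.31, adjusted p = 0.210), CG6429 (0.89, 0.122) and PGRP-SC1a (-3.13, 0.102) did not pass the test in limma, while CG6435 (0.95, 0.0147) and PGRP-SC1b (-3.23, 0.0354) did. Without all libraries listed under another condition the called genes were CG16756 among 4 other c-type lysozymes tested (1.49, 0.0403), CG6426, CG6429 and CG6435 among the 5 invertebrate-type genes, all higher, and none of the 3 PGRP amidases that passed the filter. CG11159, PGRP-SC1a and PGRP-SC1b did not pass the filter there.

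Among the digestive proteases more genes passed the test. Of 14 Jonah serine proteases, secreted by the midgut, 10 fell and none rose, with a median log2 fold change of -3.24, and Jon25Bi fell by 5.74 (adjusted p = 8.09e-04). The sum of the Jonah proteases was 554 to 1859 normalised reads in F1-18 and 2958 to 7542 in F1-25. Of 9 trypsins 3 fell and none rose (median -1.41), and their sums overlapped, at 980 to 3438 in F1-18 and 3111 to 6566 in F1-25. Of 13 maltases and amylases 1 fell, Mal-A3 by 2.04 (adjusted p = 0.00501), and none rose (median -0.24). The median over all genes tested was 0.01. With all libraries used, LysE thus had a smaller log2 fold change than the median Jonah protease or trypsin, in the same direction. The order against the trypsins was reversed without the 3 F1 libraries that match the other temperature. LysE then changed by -1.40, the median trypsin by -1.13 and the median Jonah protease by -3.03. Without all libraries listed under another condition LysE changed by -1.60, again more than the median trypsin (-0.56) and less than the median Jonah protease (-3.37). The genes called without the 3 F1 libraries that match the other temperature were 7 Jonah proteases, 1 trypsin and no maltase or amylase, all lower. Without all libraries listed under another condition none of 12 Jonah proteases (median -3.37) and 9 trypsins (median -0.56) was called in limma, whereas 6 of 13 maltases and amylases were called higher, among them Mal-A1 (1.19, adjusted p = 0.00136).

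**Figure D4:**
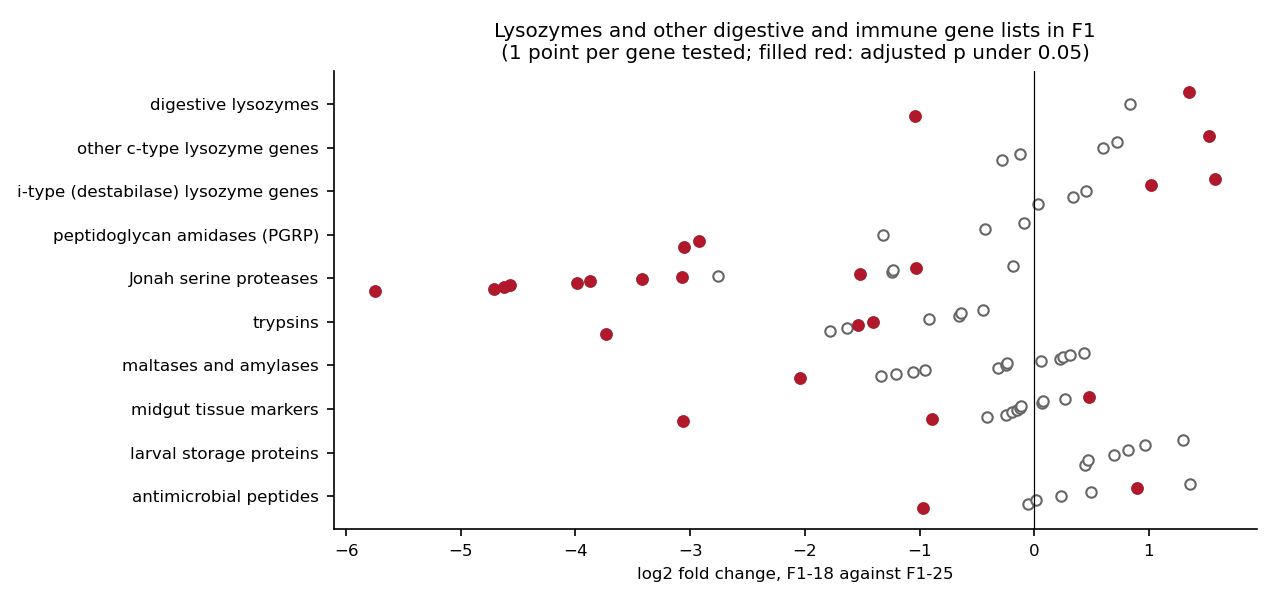
Log2 fold change between F1-18 and F1-25 (x axis) of each gene tested in 10 fixed lists (y axis), with 1 point per gene. Filled red points passed the test at an adjusted p under 0.05 and open points did not. LysE lies at -1.04 and LysX at 1.35, the Jonah proteases reach -5.74, and none of the 6 larval storage proteins passed the test.

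Because whole flies were used, fewer gut cells and less RNA per gut cell cannot be told apart. Of 12 midgut tissue markers, 2 fell in cold-treated flies and 1 rose (median log2 fold change -0.14), where 23.5% of all genes were called. The sterol transporter gene Npc1b fell by 3.06 (limma adjusted p = 0.0166), mex1 of the midgut by 0.89 (adjusted p = 0.00543), and the GATA factor srp rose by 0.48 (adjusted p = 0.0164). The summed level of the 12 markers was 2279 to 2826 in F1-18 and 2396 to 3483 in F1-25, with none of them at 0 throughout. The 6 larval storage proteins, made by the larval fat body and still present in young adults, summed to 45154 to 84136 in F1-18 and 23732 to 56003 in F1-25, and none was called. Of 9 whole male markers tested 5 fell and 2 rose. SP and Acp26Aa of the male accessory gland fell by 0.97 (adjusted p = 1.13e-04) and 0.61 (0.00711), the testis genes dj and Mst87F by 0.41 (0.0286) and 0.32 (0.0158), and mex1 is the last of the 5. Act88F, the actin of the flight muscle, rose by 1.04 (adjusted p = 0.00617) and Yp2 by 2.39 (5.67e-04). Without the 3 F1 libraries that match the other temperature mex1 and SP alone of the midgut and whole male markers passed the test, both lower, and without all libraries listed under another condition SP and Acp26Aa passed as lower and Act88F as higher, with no midgut marker called. None of the storage proteins was called in either case. The part of these tissues in the lysozyme changes was not tested.

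The pattern of LysE across libraries was most like that of 5 genes chosen by their Pearson correlation on log2(value + 2), over 20 libraries without replicates 3 and 4 of F2-M25-G25. These were CG17472 (r = 0.938), CG34129 (0.933), Sfp65A, named as a seminal fluid protein (0.883), CG10029 (0.844) and lectin-29Ca (0.838). Within the 13 F2 libraries of this set CG17472 and CG34129 still had r of 0.808 and 0.848, whereas Sfp65A had 0.455 and lectin-29Ca 0.362. The mean of CG17472 was 79.3 normalised reads in F1-18 and 254 in F1-25, and that of Sfp65A 84.4 and 173. No Jonah protease or trypsin was among the 5. With markers chosen after the values were seen, LysE had r of 0.612 with SP, 0.588 with mex1, 0.426 with the sum of the Jonah proteases and 0.288 with the sum of the trypsins. In the F2 libraries alone these were -0.105, 0.277, -0.101 and -0.103. With the sum of the larval storage proteins LysE had r of -0.323 over the 20 libraries, -0.595 in the 7 F1 libraries and -0.606 in the 13 F2 libraries. LysP had r of 0.540 with the Jonah sum and 0.648 with the trypsin sum, and 0.566 and 0.662 in F2 alone. All libraries share their normalisation and the F1 difference, so these correlations only describe the libraries.

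Among themselves the 3 genes had no shared pattern. Over the 20 libraries LysE had r of -0.359 with LysP and -0.294 with LysX, and LysP had 0.413 with LysX. In the 7 F1 libraries r was -0.776 between LysE and LysP, -0.713 between LysE and LysX and 0.495 between LysP and LysX, values that include the difference between the temperatures. In the 13 F2 libraries these were -0.227, 0.027 and -0.582, so LysP and LysX had the opposite sign there. The median sum of the 3 was 118 normalised reads in F1-18 and 122 in F1-25.

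Whether a change was passed on to the next generation was addressed with F2-M18-G18 and F2-M25-G25, both reared at 25 °C from eggs laid at the parents' temperature. No lysozyme gene was called, while 329 of 11314 genes (2.91%) were, a number that became 2 without replicate 1 and 66 without replicate 2 of F2-M25-G25 and 155 without replicate 1 of F2-M18-G18. LysE stood at 58.1, 50.9, 50.5 and 51.1 in F2-M18-G18 and at 61.4, 60.5, 80.6 and 43.5 in F2-M25-G25. The groups overlapped, and the log2 fold change was -0.19 (SE 0.17, 95% interval -0.55 to 0.18, limma adjusted p = 0.635). The F1 estimate of -1.04 lies outside this interval. The test of the difference between the F1 and the F2 effect of LysE gave -0.86 (SE 0.26, 95% interval -1.39 to -0.32, unadjusted p = 0.00303), which missed the threshold after adjustment (adjusted p = 0.0561, with 4.78% of all genes called). With equal library totals as the scaling it passed (adjusted p = 0.0445), and it passed also without replicate 3 of F1-18 (-1.03, adjusted p = 0.0189) or replicate 3 of F2-M25-G25 (-0.99, adjusted p = 0.0232). Without the 3 F1 libraries that match the other temperature it was -1.21 (adjusted p = 0.0368), and without all libraries listed under another condition -1.37 (adjusted p = 0.0788).

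LysX stood at 11.6, 7.50, 4.64 and 6.63 in F2-M18-G18 and at 5.53, 2.87, 10.3 and 3.13 in F2-M25-G25, values that overlapped and rest on 2 to 14 reads. Its log2 fold change was 0.42 (SE 0.41, 95% interval -0.44 to 1.28, limma adjusted p = 0.658). The F1 estimate of 1.35 lies above this interval, but the interval of that estimate, from 0.43, overlaps it. LysP stood at 11.2, 7.02, 14.0 and 21.5 in F2-M18-G18 and at 10.99, 17.1, 18.5 and 37.5 in F2-M25-G25, and its log2 fold change was -0.54 (SE 0.41, 95% interval -1.39 to 0.31, limma adjusted p = 0.539). The differences between the F1 and F2 effects were 0.93 for LysX (adjusted p = 0.385) and 1.37 for LysP (adjusted p = 0.182). Without replicate 3 of F1-18 the latter was 1.86 (adjusted p = 0.0395). Without all libraries listed under another condition the F2 changes were -0.50 for LysP (adjusted p = 0.577) and 0.23 for LysX (adjusted p = 0.818). In the same F2 comparison none of the 14 Jonah proteases, 9 trypsins, 5 PGRP amidases, 5 other c-type and 5 invertebrate-type lysozyme genes was called, whereas all 6 larval storage proteins were higher in F2-M18-G18, with a median log2 fold change of 3.05.

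The crossed groups separate the source of the microbiome from that of the germline. The germline source includes the temperature at which the eggs were laid. LysE stood at 46.3, 53.7 and 45.7 in F2-M18-G25 and at 61.5, 51.8, 58.2 and 45.2 in F2-M25-G18. Both sets lay within the range of F2-M25-G25. LysP stood at 34.9, 16.9 and 27.7 in F2-M18-G25 and at 21.9, 14.0, 13.6 and 10.02 in F2-M25-G18. LysX stood at 2.13, 6.87 and 4.76 in F2-M18-G25 and at 5.03, 2.45, 7.29 and 11.6 in F2-M25-G18, on 1 to 10 reads per library. The values of each gene in the crossed groups overlapped.

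No lysozyme gene was called in any of the 4 comparisons that change a single source. Changing the microbiome with the cold-treated germline (F2-M18-G18 against F2-M25-G18, 1.77% of all genes called) gave log2 fold changes of -0.03 for LysE, -0.17 for LysP and 0.23 for LysX. Changing it with the control germline (F2-M18-G25 against F2-M25-G25, 7.06% called) gave -0.30 for LysE (SE 0.19, 95% interval -0.69 to 0.09, limma adjusted p = 0.348), 0.37 for LysP and -0.15 for LysX. Changing the germline while the microbiome came from cold-treated flies (F2-M18-G18 minus F2-M18-G25, 0.681% called) gave 0.11 for LysE and 0.56 for LysX, and -0.92 for LysP (SE 0.44, 95% interval -1.83 to -0.0012, unadjusted p = 0.0497, adjusted p = 0.353). Changing the germline with the control microbiome (F2-M25-G18 against F2-M25-G25, 0.0619% called) gave -0.15 for LysE, -0.37 for LysP and 0.19 for LysX.

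These shares of called genes depended on single libraries. For the microbiome with the cold-treated germline, 200 genes were called, which became 2 without replicate 2 or without replicate 3 of F2-M25-G18, 3 without replicate 1 of F2-M18-G18 and 399 without replicate 4 of F2-M25-G18. With the control germline, 799 became 3 without replicate 1 of F2-M25-G25, 101 without its replicate 2 and 164 without replicate 4 of F2-M18-G25. For the germline with the cold-treated microbiome, 77 became 4 without replicate 4 of F2-M18-G25, and with the control microbiome 7 became 0 to 12 (limma, with 801 genes at an unadjusted p under 0.05 and none called without replicate 1 of F2-M25-G18). The lysozyme genes stayed uncalled in each of these cases.

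In the model with both sources as additive terms, the microbiome term was -0.16 for LysE (SE 0.12, 95% interval -0.40 to 0.09), 0.08 for LysP (SE 0.25) and 0.06 for LysX (SE 0.29), none called, with 16.3% of all genes called. For LysE this interval leaves out a fall of the size seen in F1. The germline term was -0.03 for LysE (SE 0.12), 0.36 for LysX (SE 0.29) and -0.62 for LysP (SE 0.25, 95% interval -1.14 to -0.10, unadjusted p = 0.0214, adjusted p = 0.204), none called, with 1.62% of all genes called. If the crossed groups are read the other way, the LysP value belongs to the microbiome source, and the shares of 16.3% and 1.62% change places. Without all libraries listed under another condition the germline term of LysP was -0.55 (adjusted p = 0.540). The interaction of both sources was 0.27 for LysE (SE 0.23), -0.55 for LysP (SE 0.50) and 0.37 for LysX (SE 0.59), with limma adjusted p of 0.689, 0.710 and 0.858 and 0.133% of all genes called. Among the other peptidoglycan-cutting enzymes the microbiome term was called higher for 2 of 5 invertebrate-type lysozymes and 1 of 5 PGRP amidases and for none of the 5 other c-type lysozymes. None of these was called without all libraries listed under another condition, and the share of all genes was 4.69% for the microbiome term.

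The generations were also compared within a treatment history, although generation, the washing of eggs and the supply of faeces differ together there. F2-M18-G18 flies, reared at 25 °C, had lower LysP and LysX than F1-18 flies, reared at 18 °C. In this comparison 1669 genes (14.8%) were called, 858 higher and 811 lower (7.17%). LysP was 3.91-fold lower, at 13.4 ± 6.08 (SD, n = 4) against 52.5 ± 26.6 (n = 4), with a log2 fold change of -1.70 (SE 0.41, 95% interval -2.54 to -0.85, limma adjusted p = 0.00758). The groups overlapped only through replicate 3 of F1-18 at 14.9. Without the 3 F1 libraries that match the other temperature the change was -2.11 (adjusted p = 0.00328), and without all libraries listed under another condition -1.86 (adjusted p = 0.0528). LysX was 3.23-fold lower, at 7.60 ± 2.95 (n = 4) against 24.5 ± 10.4 (n = 4), and its groups did not overlap, as in 16.6% of all genes.

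The log2 fold change of LysX between these generations was -1.43 (SE 0.41, 95% interval -2.29 to -0.57, limma adjusted p = 0.0233). The call was lost without replicate 1 of F1-18 (-1.30, adjusted p = 0.0672), replicate 2 of F1-18 (-1.22, 0.0865), replicate 3 of F2-M18-G18 (-1.27, 0.0820) or replicate 4 of F2-M18-G18 (-1.39, 0.0533), and without the 3 F1 libraries that match the other temperature (-1.28, 0.140). Without all libraries listed under another condition it was -1.98 (adjusted p = 0.0408). LysE was 52.6 ± 3.62 in F2-M18-G18 (n = 4) and 43.6 ± 13.0 in F1-18, a log2 fold change of 0.30 (SE 0.17, adjusted p = 0.266). In this comparison 3 of 14 Jonah proteases and 2 of 9 trypsins fell and none rose. Without the 3 F1 libraries that match the other temperature 2 of 14 and 2 of 9 fell, with 7.59% of all genes called. Without all libraries listed under another condition such counts rest on 1 library of F1-18 and are not given.

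F2-M25-G25 and F1-25 flies were both reared at 25 °C and had a control history. LysE was lower in the F2 flies in its mean, at 61.5 ± 15.2 (SD, n = 4) against 89.8 ± 10.9 (n = 3), but replicate 3 of F2-M25-G25 at 80.6 exceeded replicate 2 of F1-25 at 79.4. The log2 fold change of -0.56 (SE 0.19, 95% interval -0.95 to -0.17, unadjusted p = 0.00730) missed the threshold after adjustment (limma adjusted p = 0.0806, with 6.59% of all genes called, 746, which became 144 without replicate 2 and 203 without replicate 1 of F2-M25-G25). Without replicate 3 of F2-M25-G25 it was -0.69 (adjusted p = 0.0245), and without replicate 3 of F1-18, which changes only the shared spread, the adjusted p was 0.0410. Without the 3 F1 libraries that match the other temperature it was -0.64 (adjusted p = 0.0573), and without all libraries listed under another condition -0.73 (adjusted p = 0.282). LysP changed by -0.33 (SE 0.44, adjusted p = 0.756) and LysX by -0.49 (SE 0.45, adjusted p = 0.618). In the same comparison 11 of 14 Jonah proteases and 5 of 9 trypsins fell and none rose, so digestive proteases differed between these 2 groups of the same temperature. Without the 3 F1 libraries that match the other temperature 11 of 14 and 4 of 9 fell, with 4.59% of all genes called. Without all libraries listed under another condition such counts rest on 1 library of F1-25 and are not given.

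Ordered by mean, LysE ran from F1-25 (89.8) through F2-M25-G25 (61.5), F2-M25-G18 (54.2), F2-M18-G18 (52.6) and F2-M18-G25 (48.6) to F1-18 (43.6), and each neighbouring pair in this order overlapped. For LysP the order was F1-18 (52.5), F2-M18-G25 (26.5), F1-25 (25.5), F2-M25-G25 (21.01), F2-M25-G18 (14.9) and F2-M18-G18 (13.4), again with overlap at each step. LysX ran from F1-18 (24.5) through F1-25 (9.08), F2-M18-G18 (7.60), F2-M25-G18 (6.60) and F2-M25-G25 (5.47) to F2-M18-G25 (4.59), and its neighbours overlapped as well. The F1-18 group thus stood at the low end for LysE and at the high end for LysP and LysX.

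**Figure D5:**
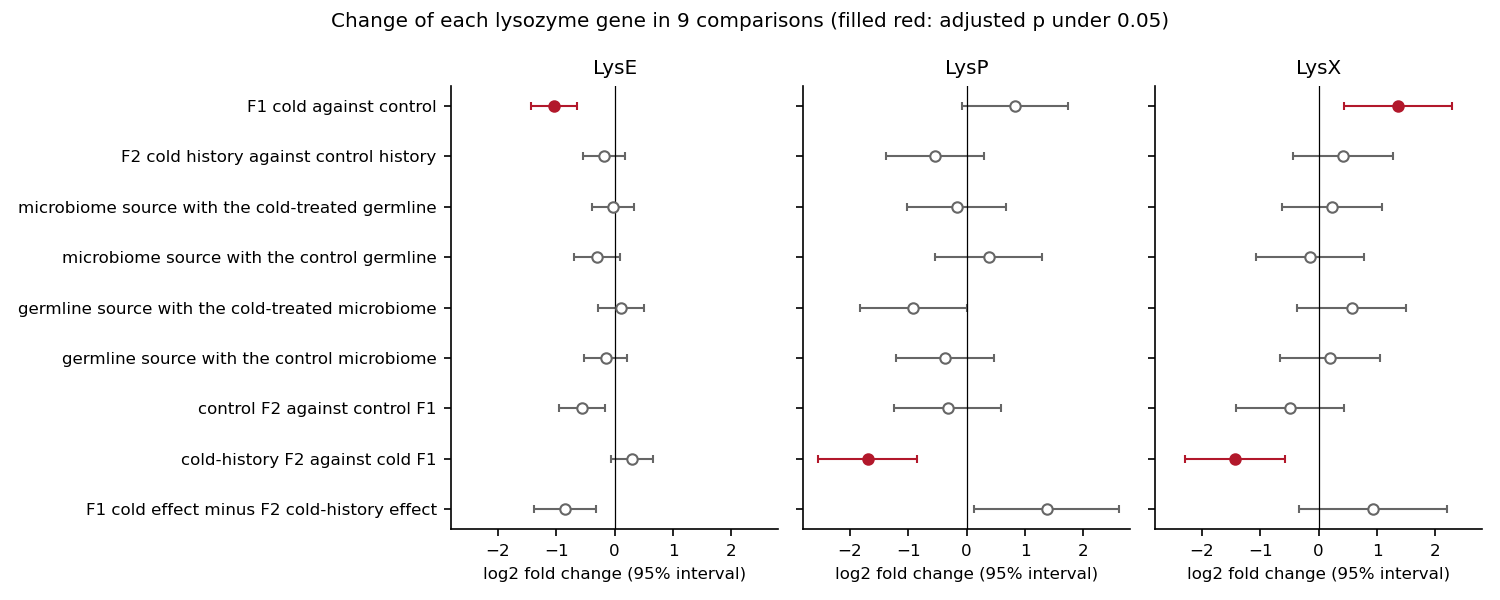
Log2 fold change of LysE, LysP and LysX (x axis) in 9 comparisons (y axis). Points are estimates from limma, bars are 95% intervals, and filled red points passed the test at an adjusted p under 0.05. LysE passed in F1 alone (-1.04), LysX in F1 (1.35) and between F2-M18-G18 and F1-18 (-1.43), and LysP in the latter (-1.70).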

How the data were processed

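RNA-Seq values of 22 libraries were analysed. The deposited values are a normalised signal per gene. According to the methods and the submitters' processing notes, the authors removed ribosomal reads with SortMeRNA, trimmed with Trimmomatic 0.32, aligned with STAR 2.4.0f1 to release 6, counted uniquely mapped reads with HTSeq 0.6.1 and normalised with TMM in edgeR. No column belonged to another series.

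Values were tested as log2(value + 2) with limma 3.58.1 in R 4.3.3 (moderated test with trend, two-sided, Benjamini-Hochberg adjustment) over the 11314 genes with at least 10 in at least 3 libraries, with 1 mean per condition. Additive and interaction models used the F2 libraries. Fold changes on this scale understate those of low genes, and fold ratios in the text are of means. Calculated values of F2-M25-G25 replicates 3 and 4 were treated as missing (mwh has 2 values there). Reads per library were recovered from the steps between low values (in 18 libraries at least 95% of them were whole within 0.1, and 40.8% in the least). Both steps were tested on simulated data. For the moderated test these were counts divided by library size, with changes only in genes whose mean was above that of LysX. That simulation thus does not cover LysX or values moved around a group mean. Replicates are biological replicates per the methods. Groups came from the sample labels. Gene positions are from the Release 6 annotation, and 11888 gene identifiers had a symbol. Tables and plots were made in Python 3.11.15 with pandas 2.3.3, matplotlib 3.10.9, scipy 1.17.1 and numpy 2.4.6.

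The members and the gene lists were chosen with earlier results of these data known. Named are the lysozyme genes, at most 4 called genes per list with the largest F1 change, and the 5 genes most correlated with the highest lysozyme gene. Alternatives covered pseudocount, filter, scaling, libraries fitted, calculated values, replicate block, exchange of the crossed groups and each library left out. Alternatives chosen after seeing the data, here and for the gene lists, were the recovered reads and the libraries whose totals are listed under other names.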

Additional observations from a re-analysis of the deposited data

Results flagged for a closer look

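In F2-M18-G18, replicate 1 stood apart for LysE at 58.1 normalised reads, beside 50.5 to 51.1 in the other 3 libraries (gap over range 0.922, above the critical value of Dixon's test). Among the 12 gene and condition pairs with 4 libraries, chance alone flags about 1 in 20, and the gap is small against the range of the other conditions.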

How the results depend on the processing

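The fall of LysE in F1 passed the test under all 35 alternatives run, with log2 fold changes of -1.60 to -0.91 and adjusted p of 8.49e-05 to 0.0177. No lysozyme gene was called in any alternative of the F2 cold history, single source, additive or interaction comparisons. In F1 the number of lysozyme genes called was 2, and it became 1 with a filter of at least 50 (which leaves LysX untested), with the F1 libraries fitted alone, with the replicate block, without the 3 F1 libraries that match the other temperature, and without all libraries listed under another condition. It was 1 to 3 with single libraries left out. Between F2-M18-G18 and F1-18 it was 2, and became 1 with the filter of at least 50 and with either set of doubtful libraries left out (1 to 2 with single libraries left out). With the filter of at least 50 the gene called there was LysP, which reached 50 in libraries of F1-18 alone (52.4, 72.2 and 70.4). It was thus tested under that filter only through the group where it was high. For the difference of the F1 and F2 effects the number called was 0. This became 1 with equal library totals, with the calculated values kept, with the replicate block, and without the 3 F1 libraries (0 to 2 with single libraries left out). Between F2-M25-G25 and F1-25 it was 0 and became 1 with the calculated values kept or with the replicate block (0 to 1 with single libraries left out).

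Same-numbered libraries had a mean r of their deviations of -0.085 in F1 (3 pairs) and of -0.073 to 0.088 in the 5 F2 pairs of groups. It was positive in every pair between F2-M18-G25 and F2-M25-G25 (0.037 to 0.131) and between F2-M25-G18 and F2-M18-G18 (0.018 to 0.071). In none of the pairs of groups checked were all library pairs over 0.1, so the libraries were not treated as paired. Same-numbered libraries of F1 and F2 were not checked in this way. With the replicate block the adjusted p of LysX in F1 was 0.0546, that of LysE between F2-M25-G25 and F1-25 was 0.0340, and that of the LysE difference between generations was 0.0315. The block changed no other call.

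The reversals were all of values that did not pass the test. With the crossed F2 groups exchanged, the microbiome source with the cold-treated germline gave 0.11 for LysE, with the control germline -0.37 for LysP and 0.19 for LysX, and over both germlines -0.62 for LysP. The germline source then gave -0.033 for LysE with the cold-treated microbiome, 0.37 for LysP and -0.15 for LysX with the control microbiome, and 0.081 for LysP over both. Without the libraries listed under another condition LysX changed by -0.24 with the microbiome and cold-treated germline, by -0.17 with the microbiome over both germlines, by -0.20 in the interaction and by 0.018 between F2-M25-G25 and F1-25, where LysP changed by 0.20. Equal library totals gave a microbiome term of -0.020 for LysP and -0.026 for LysX. With F2-M25-G25 replicates 3 and 4 left out the microbiome with the control germline gave 0.052 for LysX and the germline with the control microbiome 0.057 for LysP. With single libraries left out, the microbiome with the cold-treated germline gave -0.11 to 0.029 for LysE, -0.40 to 0.060 for LysP and -0.051 to 0.49 for LysX, and with the control germline -0.39 to 0.16 for LysX. The germline with the control microbiome gave -0.069 to 0.47 for LysX, F2-M25-G25 against F1-25 gave -0.77 to 0.0021 for LysX, the microbiome term -0.038 to 0.22 for LysP and -0.098 to 0.20 for LysX, and the germline term -0.096 to 0.048 for LysE. The cause of these changes was not tested. Over all alternatives the calls among all genes ranged from 855 to 2959 in F1 (2660 in the report), from 2 to 1274 for the F2 cold history (329) and from 856 to 1948 between F2-M18-G18 and F1-18 (1669).

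LysX rests on 1 to 14 reads per F2 library. The upper 95% bounds of its F2 changes were 1.28 for the cold history, 0.66 for the microbiome term and 0.97 for the germline term, below its F1 estimate of 1.35, and 1.49 for the germline with the cold-treated microbiome. Smaller changes could not be resolved at this depth.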
